A study of Mus musculus with 30 samples.

Results

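The cells compared here were 2 lines of βTC3, an insulin-secreting line derived from islet tumours of mice that express the SV40 large T antigen in beta cells. One line carried a doxycycline-inducible dominant-negative form of the receptor ALK7 (ALK7-DN) in the PB33 plasmid, and the other, the control, is labelled with the PB33 plasmid and no receptor. Both received 1 µg/ml doxycycline (DOX) for 24 hours and no activin B, and both were in batch 1. The 6 libraries, 3 per line, were chosen by their labels from 30 libraries in 10 groups, and each of 15627 genes that passed a low-count filter was compared. A further line, with wild-type ALK7 in the same plasmid and under the same DOX treatment in batch 1, served as a second reference. The labels do not say whether a line was 1 clone or a pool, and each construct was present in 1 line, so a difference between lines cannot be told apart from one that the construct made. Replicates were wells plated in triplicate, so p-values measure only the spread between libraries of the same group, which may be technical. That spread was estimated over all 30 libraries in 10 groups and not from these 6 alone.

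ALK7, encoded by Acvr1c, is a type I receptor of the TGF-β family. Ligands such as activin B bring it together with a type II receptor, which phosphorylates it, and ALK7 then phosphorylates SMAD2 and SMAD3. These join SMAD4 and act on genes in the nucleus, among them the gene of the inhibitory SMAD7, which feeds back on the receptor. A dominant-negative receptor can occupy ligand and type II receptor without passing the signal on. In pancreatic beta cells ALK7 is known for restraining insulin secretion, and in islet tumours it has been linked to cell death. With no activin B added, the comparison addresses what the dominant-negative receptor goes with at the signalling that the cells and their medium provide.

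The 6 libraries held between 21065952 and 32824118 counts. The summed level of 8 beta cell markers was 20000 to 20500 CPM (read counts scaled to a common library size) in the control libraries and 20300 to 21900 CPM in the ALK7-DN libraries. Ins1, Ins2, Iapp, Pdx1 and Nkx6-1 were all present. Of the acinar markers, Cpa1, Prss1, Amy2a5 and Ptf1a had no counts in any of the 6 libraries, and Cela1 had 0.337 to 0.549 CPM. Among markers of other islet cells Gcg, the gene of glucagon, was present in every library. It had 51.6 to 54.9 CPM in control and 49.4 to 58.9 CPM in ALK7-DN libraries, with a log2 fold change of 0.07 (SE 0.07, adjusted p = 0.903). Duct, stromal, endothelial and immune markers summed to at most 4.54, 2.65, 0.338 and 2.94 CPM, and the duct sums were higher in ALK7-DN (3.39 to 4.54 CPM) than in control libraries (2.71 to 3.07 CPM). Slc2a2 is the transporter that takes glucose into beta cells, and it is listed at 3.45 to 4.23 CPM in control and 5.35 to 6.06 CPM in ALK7-DN libraries. Its difference was not past the test.

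The construct was not visible in the counts of Acvr1c. That gene (mm10 chromosome 2, positions 58267453 to 58357895) had 167, 158 and 170 CPM in the control libraries, 156, 158 and 170 CPM in the ALK7-DN libraries and 163, 142 and 158 CPM in the line with wild-type ALK7. The 3 lines overlapped, and ALK7-DN differed from control by a log2 fold change of -0.03 (SE 0.10, adjusted p = 0.984). These counts therefore do not check the labels, and the expression of the construct was not measured here. Of the other listed TGF-β family receptor and SMAD genes, none differed past the test between ALK7-DN and control. Acvr1b and Tgfbr1, the type I receptors ALK4 and ALK5, had log2 fold changes of 0.06 (SE 0.08) and -0.07 (SE 0.09). The type II receptors Acvr2a and Acvr2b had -0.08 (SE 0.09) and 0.16 (SE 0.25). Smad2, Smad3 and Smad4 had 0.00 (SE 0.05), 0.13 (SE 0.08) and 0.01 (SE 0.04). Against the ALK7 line, Smad3 was higher in ALK7-DN (0.32, adjusted p = 0.0453). Smad9 was lower in ALK7 than in control (-0.41, adjusted p = 0.00118). Smad7 was 2.81 CPM (SD 0.456, n = 3) in control and 2.39 CPM (SD 0.204, n = 3) in ALK7-DN libraries, with a log2 fold change of -0.23 (SE 0.13, adjusted p = 0.758). In the line with wild-type ALK7 the same gene rose by 2.92 on the log2 scale (SE 0.12, adjusted p = 3.64e-15) when activin B was added. Inhbb, which encodes the subunit of activin B, did not reach the low-count filter.

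Between ALK7-DN and control, 151 of 15627 genes passed an adjusted p of 0.05, which is 0.966% of the genes tested. Of these 59 were higher in ALK7-DN (0.378%) and 92 were lower (0.589%). Most differences were small. The median log2 fold change was 0.472 among the higher and -0.556 among the lower genes, against 0.0106 over all genes tested, and 2 higher and 17 lower genes differed by 2-fold or more. The libraries of the lines did not overlap for all 59 higher and for 91 of the 92 lower genes, while 19.3% of all genes tested did not overlap. The count fell whichever library was left out. Leaving out control replicate 1, 2 or 3 gave 88, 83 and 75 genes, and leaving out ALK7-DN replicate 1, 2 or 3 gave 80, 67 and 73. The part of the smaller number of libraries in this fall was not tested. In all, 43 genes passed without each of the 6 libraries in turn, 13 higher and 30 lower. Of the genes named by the rule of the methods, 42 passed with all libraries and 20 of these passed without each library in turn. The other 22 lost the call without at least 1 library, namely Ltbp2, Slitrk2, Cd300lb, Lamb1, Ablim1, Slco2a1, Srgap1, Serpina1e, Myo7b, Pkib, Krt7, Kcnc1, Ttr, Trpm5, Abca1, Nupr1, Prlr, Lgalsl, Ddit4l, Dnah8, Aard and Ahcy. With only these 6 libraries in the fit, 25 genes passed (0.171% of 14640), of which 20 were among the 151. Libraries also differed in how counts followed the GC content of genes, with a Spearman correlation across genes between log2 fold change and GC content of 0.25. Genes are not independent replicates. After a correction for GC content 106 genes were higher and 183 lower.

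**Figure D1:**
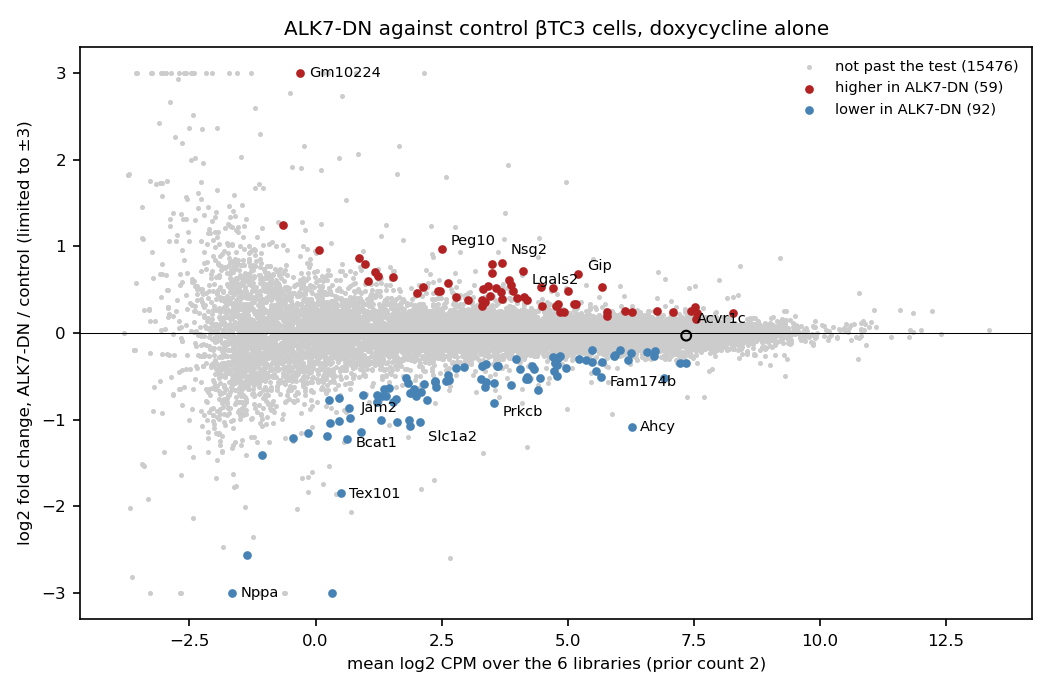
Each point is 1 of 15627 genes, with the mean log2 CPM of the 6 libraries on the x axis and the log2 fold change of ALK7-DN over control on the y axis, limited to 3 in either direction. The 59 coloured points above 0 and the 92 below it passed the test, and Acvr1c (open circle) lies at -0.03.

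The genes higher in ALK7-DN were led by Peg10, Nsg2, Lgals2, Gip and members of the Serpina1 cluster. Peg10, Nsg2, Lgals2 and Serpina1b, together with the predicted gene Gm14616, passed the test under all 18 alternative settings tried. Nsg2 (chromosome 11, 32000463 to 32059202), which encodes a neuronal protein of endosomes, had 9.57, 9.72 and 10.1 CPM in control and 18.0, 17.7 and 15.7 CPM in ALK7-DN libraries. Every ALK7-DN library lay above every control library, with a log2 fold change of 0.81 (SE 0.08, adjusted p = 7.29e-06). The ALK7 line, at 8.05, 9.31 and 9.43 CPM, lay below both, and ALK7-DN exceeded it by 0.94 (adjusted p = 1.73e-07). Lgals2 (chromosome 15, 78850860 to 78855529) encodes galectin-2, a lectin that binds galactosides. It had 13.7, 14 and 13 CPM in control, 21.4, 21.8 and 23.2 CPM in ALK7-DN and 12.6, 11.8 and 12.5 CPM in ALK7 libraries. ALK7-DN stood above both other lines, by 0.71 (SE 0.09, adjusted p = 0.000143) against control and 0.84 (adjusted p = 6.19e-06) against ALK7.

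Gip (chromosome 11, 96024545 to 96030831) encodes the incretin hormone that gut K cells secrete and that raises insulin release. Its control libraries had 30.3, 30.8 and 26.9 CPM, its ALK7-DN libraries 42.9, 45.4 and 52.6 CPM and its ALK7 libraries 25.8, 24.7 and 24.9 CPM. The ALK7-DN libraries were the highest of the 3 lines without overlap, by 0.68 against control (SE 0.09, adjusted p = 0.000175) and 0.90 against ALK7 (adjusted p = 1.46e-06). Gipr, the receptor of this hormone, had a log2 fold change of -0.09 (SE 0.13, adjusted p = 0.951). Slitrk2, a neuronal transmembrane protein of synapses, and Cd300lb, a receptor of myeloid cells, completed the 5 genes that the naming rule takes for their excess over both other lines. That rule leaves out predicted genes, of which the processed pseudogene Gm10224 had 0.192, 0.209 and 0.296 CPM in control and 7.63, 0.332 and 3.29 CPM in ALK7-DN libraries (4.0, SE 0.96, adjusted p = 0.0418). Slitrk2 rose from 1.25, 1.36 and 1.27 CPM in control to 2.29, 2.58 and 2.24 CPM in ALK7-DN libraries (0.87, SE 0.21, adjusted p = 0.0455). Cd300lb rose from 1.06, 1.67 and 1.61 CPM to 2.50, 2.47 and 2.62 CPM (0.80, SE 0.20, adjusted p = 0.0486). Both passed in few alternative settings, 3 and 2 of 18, and neither passed with any of the 6 libraries left out.

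Peg10, the Serpina1 genes and Zcwpw1 were higher in both receptor lines than in the control. Peg10 (chromosome 6, 4747306 to 4760517) is a paternally expressed imprinted gene derived from a retrotransposon. It had 4.23, 4.15 and 3.72 CPM in control, 8.13, 7.89 and 7.66 CPM in ALK7-DN and 20.1, 17.0 and 19 CPM in ALK7 libraries. The 3 lines were fully separated, and the dominant-negative line lay between the others, with a log2 fold change of 0.97 against control (SE 0.13, adjusted p = 0.000185) and -1.25 against ALK7 (adjusted p = 1.1e-06). Of 24 imprinted genes tested, Peg10 alone passed, and their median log2 fold change was -0.03. Zcwpw1, a reader of histone methylation known from meiosis, had 11.5, 12.8 and 11.6 CPM in control and 16.4, 18.6 and 17.9 CPM in ALK7-DN libraries (0.56, SE 0.08, adjusted p = 0.000574). Its ALK7 libraries, at 19.8, 18.8 and 20.1 CPM, also lay above all control libraries.

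The Serpina1 genes on chromosome 12 encode mouse forms of alpha-1-antitrypsin, the main inhibitor of neutrophil elastase in blood. Serpina1b had 28.1, 27.5 and 25.6 CPM in control and 37.5, 38.6 and 38.1 CPM in ALK7-DN libraries (0.49, SE 0.06, adjusted p = 2.54e-05). Serpina1d had 10.1, 9.44 and 10.1 CPM in control and 14.1, 13.9 and 14.3 CPM in ALK7-DN libraries (0.52, SE 0.06, adjusted p = 1.86e-05). Serpina1e had 5.53, 4.67 and 4.78 CPM in control and 7.76, 6.82 and 7.80 CPM in ALK7-DN libraries (0.58, SE 0.12, adjusted p = 0.0132). Of 5 paralogs tested these 3 passed, while 0.378% of all genes tested were called higher. The libraries of the lines did not overlap for any of the 3, and 19.3% of all genes tested did not overlap. The paralogs share 35.8%, 50.9% and 35.6% of their stretches of 50 bases with other genes, so reads may have been split between them and the single values are uncertain. Other Serpina1 genes are among those that share them, so the 3 calls are not independent. None of the 3 differed past the test between ALK7-DN and ALK7, with log2 differences of 0.09, -0.12 and -0.25.

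The region before the start site is shown for 4 of the higher genes that share a short sequence. The sequence GTTAAT, on either strand, lay in the 250 bases upstream of the start of 7 of 44 higher genes with a RefSeq entry (15.9%), of 2 of 67 lower genes (2.99%) and of 3.78% of the 10361 tested genes with an entry. The 7 were Cd300lb, Gip, Lgals2, Ltbp2, Serpina1b, Serpina1d and Serpina1e, and the 3 Serpina1 windows share a stretch of 64 bases and are not independent. That stretch does not hold GTTAAT itself, although the bases next to GTTAAT are also alike in the 3 windows. The sequences are from RefSeq (build GRCm38), written 5′ to 3′ along the gene, with GTTAAT in capitals. The windows end at the RefSeq start, which for Serpina1b lies 92184 bases from the start of the gene in GENCODE.
Gip, chr11:96024295-96024544, plus strand: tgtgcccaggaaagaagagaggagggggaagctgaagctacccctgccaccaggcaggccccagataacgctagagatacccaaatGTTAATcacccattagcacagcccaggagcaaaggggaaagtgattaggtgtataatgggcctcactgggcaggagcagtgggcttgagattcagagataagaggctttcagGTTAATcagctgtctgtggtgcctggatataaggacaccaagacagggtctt
Lgals2, chr15:78855530-78855779, minus strand: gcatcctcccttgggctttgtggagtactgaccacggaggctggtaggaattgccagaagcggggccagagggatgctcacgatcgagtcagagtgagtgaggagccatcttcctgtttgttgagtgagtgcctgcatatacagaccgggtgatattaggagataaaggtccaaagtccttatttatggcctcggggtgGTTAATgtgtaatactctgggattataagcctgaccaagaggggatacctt
Serpina1b, chr12:103738190-103738439, minus strand: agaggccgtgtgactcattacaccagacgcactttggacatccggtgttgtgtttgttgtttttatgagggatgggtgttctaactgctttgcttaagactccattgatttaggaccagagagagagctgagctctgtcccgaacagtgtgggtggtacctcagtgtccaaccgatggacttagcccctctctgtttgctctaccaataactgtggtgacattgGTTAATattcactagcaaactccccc
Serpina1d, chr12:103773634-103773883, minus strand: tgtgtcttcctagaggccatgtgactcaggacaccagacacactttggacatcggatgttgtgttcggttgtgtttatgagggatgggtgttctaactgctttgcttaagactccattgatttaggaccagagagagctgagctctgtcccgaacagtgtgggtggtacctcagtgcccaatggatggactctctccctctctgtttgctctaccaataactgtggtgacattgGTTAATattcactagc
Gip holds the motif 2 times and the others hold it once. A match of letters is a description and does not show that a factor binds. The SMAD element CAGAC, on either strand, lay in the same window of 52.3% of the higher genes (23 of 44), 32.8% of the lower genes (22 of 67) and 40.6% of all tested genes. Both motifs were chosen after the called genes had been seen and no test of their shares was made.

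**Figure D2:**
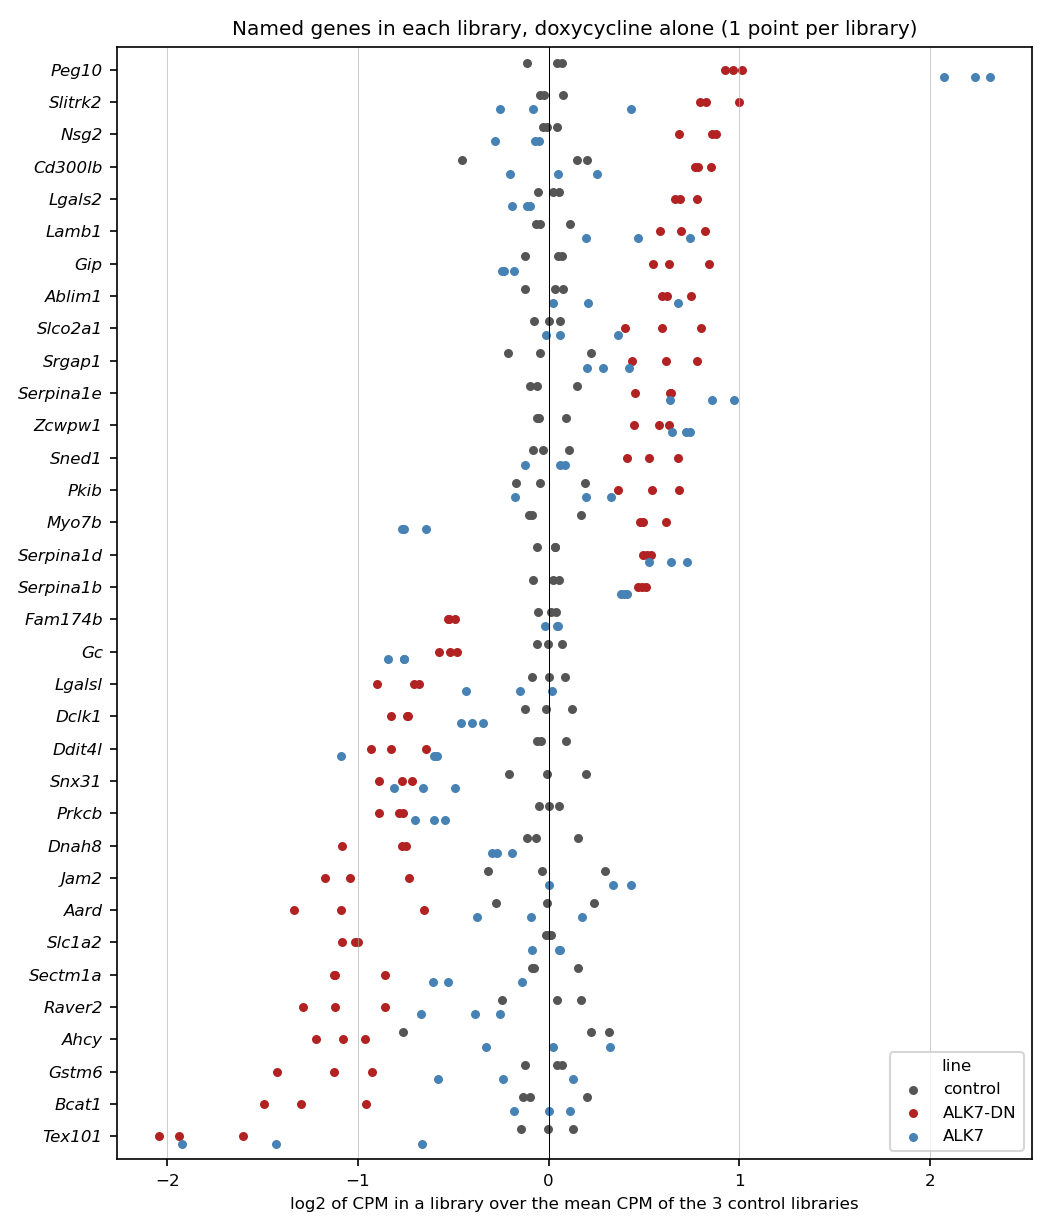
Each point is 1 library, placed by the log2 of its CPM over the mean of the 3 control libraries, for genes named by the rule of the methods. Peg10 lies highest in the ALK7 line, while for Nsg2, Lgals2 and Gip every ALK7-DN library lies to the right of every control and ALK7 library. For Ahcy control replicate 3 lies apart from the other 2.

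Lamb1 and Ltbp2, both higher, encode proteins of the extracellular matrix. Lamb1, the laminin beta 1 chain of basement membranes, had 1.64, 1.67 and 1.86 CPM in control and 2.78, 2.58 and 3.04 CPM in ALK7-DN libraries (0.70, SE 0.13, adjusted p = 0.00781). Of 25 extracellular matrix genes tested it was the only one past the test, with a list median of 0.07. Ltbp2, a matrix protein of the latent TGF-β binding protein family, rose from 0.289, 0.383 and 0.423 CPM to 1.08, 0.811 and 0.735 CPM (1.25, SE 0.25, adjusted p = 0.00985). Further genes that rose by 0.53 to 0.66 were Ablim1, an actin-binding LIM protein, Slco2a1, a prostaglandin transporter, Srgap1, a GTPase-activating protein of Slit-Robo signalling, Sned1, a matrix protein, Pkib, an inhibitor of protein kinase A, and Myo7b, a myosin of microvilli. Of these Sned1 alone passed without each library in turn, at 8.71, 8.40 and 9.55 CPM in control and 14.2, 12.8 and 11.8 CPM in ALK7-DN libraries (0.54, SE 0.08, adjusted p = 0.000329).

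Homer2 and Myo7b were the genes called in opposite directions in the 2 receptor lines. Homer2, a scaffold protein of synapses that lies outside the naming rule and is named for this difference, had 21.2, 22.1 and 22 CPM in control, 30.3, 32.0 and 31.0 CPM in ALK7-DN and 12.2, 11.4 and 12.4 CPM in ALK7 libraries. ALK7-DN exceeded control by 0.52 (SE 0.08, adjusted p = 0.000734) while ALK7 lay below control with a log2 fold change of -0.85 (adjusted p = 5.01e-07). Myo7b had 48.2, 39.9 and 40.3 CPM in control, 65.5, 60.4 and 59.6 CPM in ALK7-DN and 27.4, 25.3 and 25.1 CPM in ALK7 libraries. No library of one line overlapped with another for either gene.

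Among the genes lower in ALK7-DN, Slc1a2, Fam174b, Prkcb, Gc, Tex101 and Slc47a1 passed under all 18 alternative settings. Slc1a2 (chromosome 2, 102658659 to 102790784) encodes the glutamate transporter GLT-1. Its control libraries had 5.87, 5.82 and 5.92 CPM and its ALK7-DN libraries 2.94, 2.77 and 2.90 CPM. The values within each line were nearly equal, and the log2 fold change was -1.03 (SE 0.12, adjusted p = 4.1e-05). The ALK7 line, at 6.12, 5.53 and 6.09 CPM, lay with the control, and ALK7-DN differed from it by -1.04 (adjusted p = 1.4e-05). Fam174b (chromosome 7, 73740302 to 73776919) showed the same order at a higher count, with 57.9, 60.8 and 61.9 CPM in control, 41.7, 42.9 and 41.9 CPM in ALK7-DN and 62.3, 59.4 and 62.0 CPM in ALK7 libraries. Its log2 fold change was -0.51 against control (SE 0.05, adjusted p = 7.29e-06) and -0.54 against ALK7 (adjusted p = 4.31e-07).

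Bcat1 and Jam2 were also low in the dominant-negative line against both others. Bcat1 encodes the cytosolic aminotransferase that starts the breakdown of branched-chain amino acids. It had 2.12, 2.61 and 2.07 CPM in control, 1.17, 0.922 and 0.805 CPM in ALK7-DN and 2.45, 2.27 and 2.00 CPM in ALK7 libraries. ALK7-DN lay below both lines in every library, with a log2 fold change of -1.22 against control (SE 0.17, adjusted p = 0.000185). Jam2, a junctional adhesion molecule, had 1.73, 2.65 and 2.11 CPM in control, 1.30, 0.959 and 1.05 CPM in ALK7-DN and 2.92, 2.73 and 2.16 CPM in ALK7 libraries (-0.98 against control, SE 0.16, adjusted p = 0.00118). Gstm6, a glutathione transferase, fell from 2.74, 2.44 and 2.79 CPM to 0.989, 1.4 and 1.22 CPM (adjusted p = 0.00167), although 11.5% of its stretches of 50 bases occur in other genes.

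Prkcb, Gc and Tex101 were lower in both receptor lines than in control. Prkcb (chromosome 7, 122288751 to 122634402) encodes protein kinase C beta, which diacylglycerol and calcium activate. It had 14.8, 15.9 and 15.3 CPM in control, 9.02, 8.89 and 8.26 CPM in ALK7-DN and 10.5, 9.41 and 10.1 CPM in ALK7 libraries. ALK7-DN had a log2 fold change of -0.81 against control (SE 0.08, adjusted p = 7.29e-06) and its difference from ALK7 was not past the test (-0.20, adjusted p = 0.315). Gc, the vitamin D binding protein, had 26.1, 27.5 and 25.1 CPM in control, 17.6, 18.3 and 18.8 CPM in ALK7-DN and 14.6, 15.5 and 15.5 CPM in ALK7 libraries (-0.52 against control, SE 0.06, adjusted p = 4.74e-05). For Gc ALK7-DN lay above ALK7 (0.26, adjusted p = 0.029). Tex101, a surface protein of germ cells, fell from 2.31, 2.54 and 2.79 CPM to 0.618, 0.664 and 0.840 CPM (-1.85, SE 0.21, adjusted p = 1.86e-05), and its ALK7 libraries had 0.671, 0.945 and 1.61 CPM.

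The other lower genes named by the same rule lay between -1.07 and -0.76 without overlap of the 3 and 3 libraries. They were Raver2, an RNA-binding protein, Sectm1a, Aard, Dnah8, a dynein heavy chain, Ddit4l, an inhibitor of mTORC1, Snx31, a sorting nexin, Dclk1, a doublecortin-like kinase, and Lgalsl. Raver2 and Sectm1a were also below ALK7, with log2 fold changes of -0.65 (adjusted p = 0.00953) and -0.61 (adjusted p = 0.0323). So were Aard (-0.93, adjusted p = 0.00908) and Lgalsl (-0.58, adjusted p = 0.039). Dnah8, Ddit4l, Snx31 and Dclk1 did not differ from ALK7 past the test. Snx31 and Ddit4l were also lower in ALK7 than in control (-0.64, adjusted p = 0.00612, and -0.74, adjusted p = 0.0176). Ahcy, which breaks down S-adenosylhomocysteine, had 143, 134 and 67.8 CPM in control and 59.0, 54.5 and 49.3 CPM in ALK7-DN libraries (-1.08, SE 0.24, adjusted p = 0.0244). It shares 77.0% of its stretches of 50 bases with other genes and passed in 1 of the 6 fits that leave out a library, so it is uncertain. The pseudogene-like Pgk1-rs7 rested on the first control library, with 48.0 CPM against 0.558 and 0.338 CPM in the other controls, and Gm10224 on ALK7-DN libraries of 7.63, 0.332 and 3.29 CPM.

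Solute carriers were among the lower genes, a group picked out after the values were seen. Of 246 Slc genes tested, 7 were lower (2.85%, against 0.589% of all genes tested) and 0 were higher (against 0.378%) in edgeR, and their median log2 fold change was -0.009. At an unadjusted p under 0.05, 28 were lower (11.4%, against 4.26% of all genes) and 9 higher (3.66%, against 4.18%). DESeq2 called 8 lower and limma-trend 7, and both called 0 higher. The 7 were Slc1a2, Slc4a5, Slc35d3, Slc6a15, Slc47a1, Slc22a23 and Slc16a12. Slc47a1, the extruder MATE1, had 13.6, 14.6 and 14 CPM in control and 9.33, 9.44 and 9.48 CPM in ALK7-DN libraries (-0.58, SE 0.08, adjusted p = 0.000224). Galr1, the receptor for the neuropeptide galanin, which inhibits insulin release, was outside the naming rule and was likewise picked after its values were seen. It had 32.9, 34.1 and 30.3 CPM in control, 22.3, 24.6 and 22.6 CPM in ALK7-DN and 35.3, 39.8 and 39.2 CPM in ALK7 libraries (-0.49 against control, SE 0.07, adjusted p = 0.000185).

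Of 31 gene lists, 9 held a member past the test and 22 held none. The lists name 674 genes, not all of which were tested, and 10 list genes passed in all. Over all genes tested 0.966% passed and the median log2 fold change was 0.0106. Of 32 beta cell identity genes, Trpm5, a calcium-activated cation channel, rose and Prlr, the prolactin receptor, fell, and the list median was 0.015. Prlr had 26.4, 24.1 and 29.3 CPM in control, 16.9, 16.2 and 17.3 CPM in ALK7-DN and 37.6, 28.2 and 34.8 CPM in ALK7 libraries (-0.66 against control, SE 0.15, adjusted p = 0.0255). Trpm5 had 72.3, 70.2 and 70.4 CPM in control and 81.5, 85.2 and 85.5 CPM in ALK7-DN libraries (0.24, SE 0.06, adjusted p = 0.0395). Its ALK7 libraries lay higher still, at 109, 108 and 107 CPM (0.61 against control, adjusted p = 4.67e-07). For this gene ALK7-DN was below ALK7 (-0.36, adjusted p = 0.0004). Among 10 genes of other islet hormone cells, Ttr, which carries thyroid hormone, rose by 0.30 (SE 0.07, adjusted p = 0.0476). Of 8 exocrine and duct genes tested, Krt7, a keratin of duct epithelium, rose from 11.6, 12 and 10.5 CPM to 16.1, 12.8 and 15.7 CPM (0.39, SE 0.08, adjusted p = 0.0105). Krt7 was also higher in ALK7 than in control, at 17.7, 17.2 and 16.3 CPM (0.59, adjusted p = 7.63e-05). The exocrine and duct list had a median of 0.293, and the part of other cell types in this was not tested.

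Among 27 potassium and calcium channel genes, Kcnc1 rose by 0.38 (SE 0.09, adjusted p = 0.0478). Of 24 genes of the ATF4 stress response, Nupr1, a small stress-induced nuclear protein, fell by 0.38 on the log2 scale (SE 0.08, adjusted p = 0.0244). Of 25 cholesterol genes, Abca1, which exports cholesterol, fell by 0.31 (SE 0.07, adjusted p = 0.0282), and it was also below ALK7 (-0.48, adjusted p = 0.000205). Of 21 SMAD2/3 target and feedback genes, Ltbp2 alone passed, and the list median was 0.053. In ALK7 cells 15 of those 21 rose with activin B and 0 fell in edgeR, also at an unadjusted p under 0.05, while of all genes tested 13% rose and 12.3% fell at an adjusted p of 0.05.

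The 22 lists with no member past the test in edgeR hold 393 tested genes, of which 18 were higher (4.58%) and 23 lower (5.85%) at an unadjusted p under 0.05. Of all genes tested 4.18% were higher and 4.26% lower at that threshold. DESeq2 called 1 of them higher and 0 lower, and limma-trend called 0. The 1 gene was Cpe, the carboxypeptidase that trims insulin in granules, with a log2 fold change of 0.13 in DESeq2 (adjusted p = 0.0101) and 0.14 in edgeR (adjusted p = 0.0991). These lists include 7 SMADs (median 0.001), 6 type I receptors (-0.034), 13 ligands and ligand traps (-0.106), 29 secretory granule genes (-0.012), 30 genes of G1/S and DNA replication (0.012), 30 of G2/M and mitosis (0.015), 13 BH3-only and other proapoptotic genes (0.067), 19 BCL2 survival, effector and caspase genes (0.014), 17 p53 targets (0.034), 23 ER chaperones (0.017) and 30 interferon and antigen presentation genes (0.02). The members named below had the smallest p of their lists. Bcl2l11, the proapoptotic BIM, had 44.9, 44.2 and 44.2 CPM in control and 48.9, 46.6 and 47.6 CPM in ALK7-DN libraries (0.10, SE 0.06, adjusted p = 0.712). Aurka, a mitotic kinase, had 0.17 (SE 0.05, adjusted p = 0.216). Dnajc3, an ER co-chaperone, had 178, 193 and 191 CPM in control and 149, 159 and 163 CPM in ALK7-DN libraries, which did not overlap, with -0.26 (SE 0.07, adjusted p = 0.133).

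**Figure D3:**
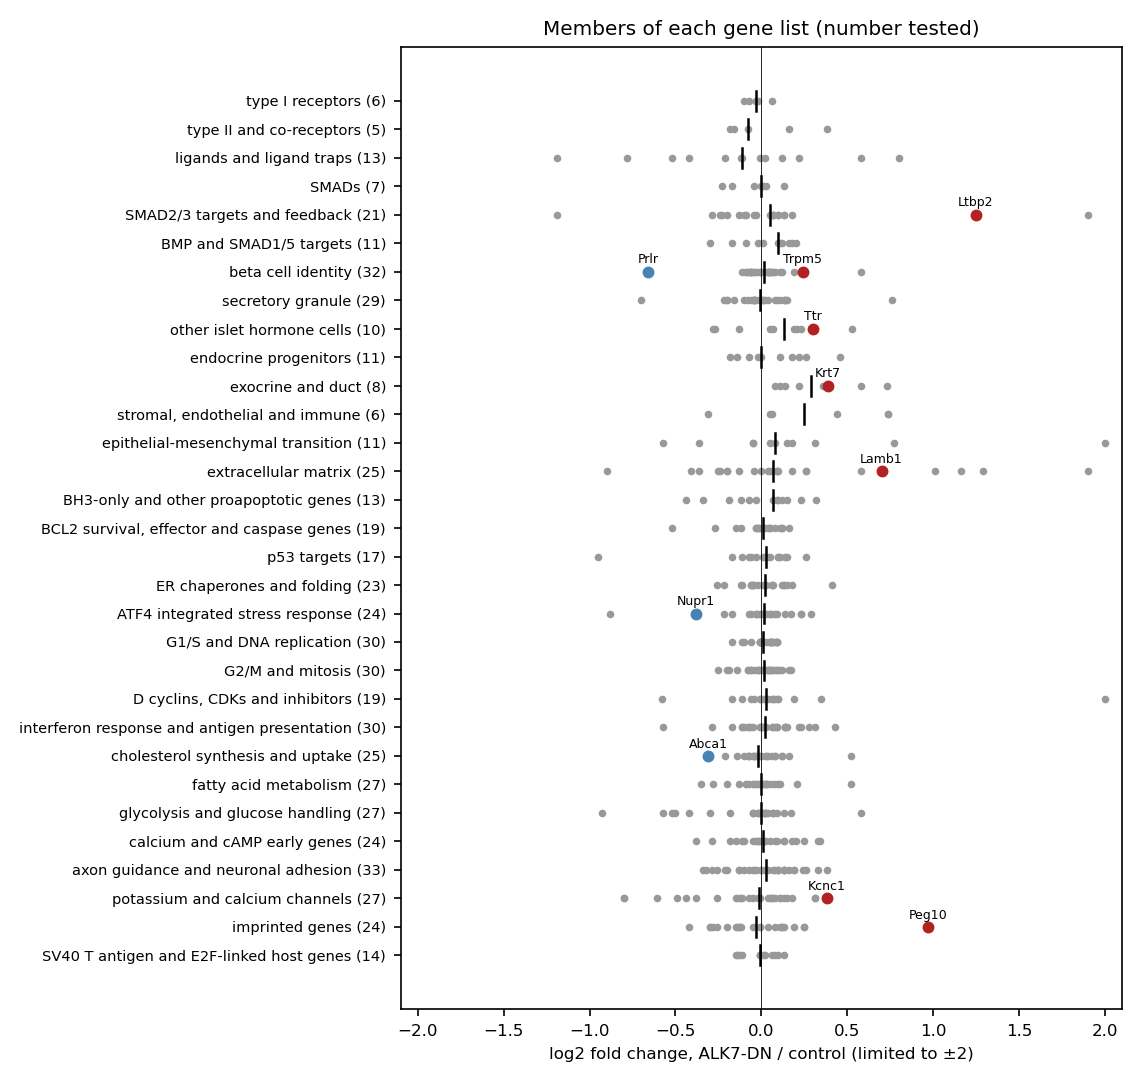
Each row is a gene list with the number of members tested, each point is the log2 fold change of ALK7-DN over control of 1 member, limited to 2 in either direction, and black bars are list medians. Red (higher) and blue (lower) points are the 10 named members past the test, and 22 lists have none.

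The direct comparison of the 2 receptor lines gave 383 genes past the test, 2.45% of those tested, of which 183 were higher in ALK7-DN (1.17%) and 200 were lower (1.28%). ALK7 against control gave 310 (1.98%), with 161 higher (1.03%) and 149 lower genes (0.953%). The latter shares its control libraries with the comparison of ALK7-DN and control, so the values are set side by side and no overlap is drawn. Genes such as Nsg2, Lgals2, Gip, Slc1a2, Fam174b, Bcat1 and Jam2 had control and ALK7 within 0.25 of each other on the log2 scale and passed in ALK7-DN against each. For Peg10, Serpina1b, Serpina1d, Zcwpw1, Prkcb, Gc and Tex101 the 2 receptor lines lay on the same side of the control.

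Activin B in ALK7 cells was compared with DOX alone in libraries that the comparison of ALK7-DN and control does not use. There 3953 genes passed the test (25.3%), of which 2032 rose (13%) and 1921 fell (12.3%). Of the 59 genes higher in ALK7-DN, activin B raised 16 (27.1%) and lowered 26 (44.1%) in ALK7 cells, with a median of -0.17. Of the 92 lower genes it raised 39 (42.4%) and lowered 20 (21.7%), with a median of 0.15. Gip and Peg10, both higher in ALK7-DN, fell with activin B by 1.61 and 1.59 on the log2 scale. Slc1a2, Jam2 and Gc, all lower in ALK7-DN, rose with activin B by 1.84, 4.92 and 1.82. The pattern was not uniform, since Nsg2, Lamb1 and Ltbp2 were higher in ALK7-DN and rose with activin B by 1.72, 3.12 and 3.87. With DOX alone the ALK7 line lay on the same side of control as ALK7-DN, and further from it, for Peg10 (2.21) and Gc (-0.79). Gip, Slc1a2 and Jam2 did not differ past the test between ALK7 and control. These counts describe called genes, which were chosen for their difference, and no test of the overlap was made.

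**Figure D4:**
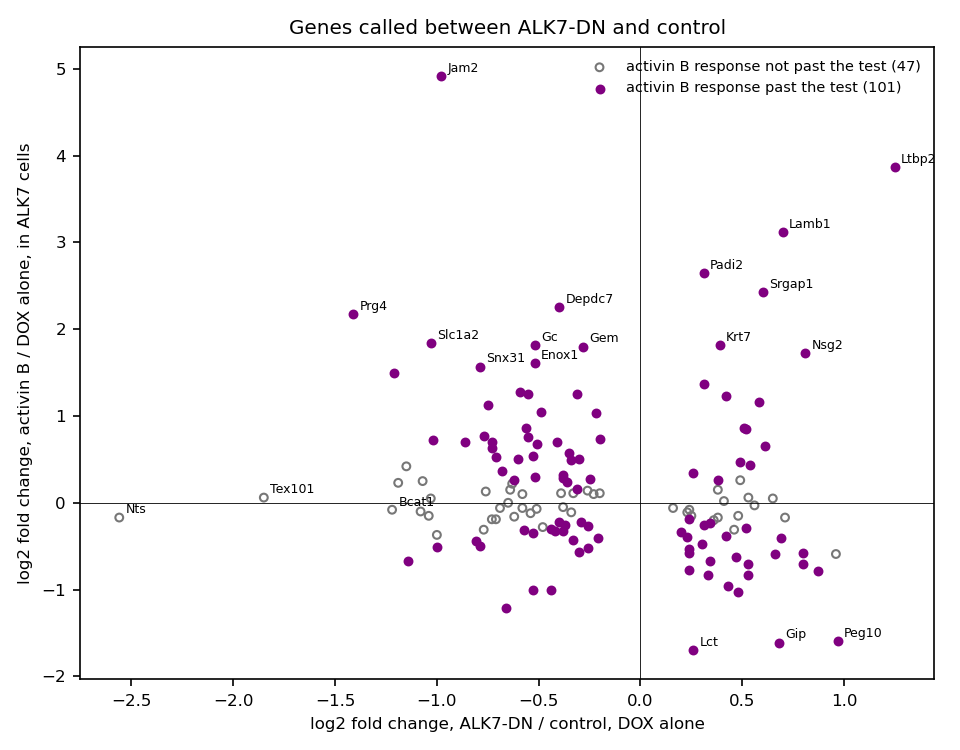
Each point is 1 of 148 genes called between ALK7-DN and control, with that log2 fold change on the x axis and the log2 fold change of activin B over DOX alone in ALK7 cells on the y axis. Filled points (101) passed the test for activin B and open points (47) did not. Nppa, Pgk1-rs7 and Gm10224 are not drawn.

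Under activin B the 2 lines kept most of these differences in other libraries, although there the ALK7-DN libraries are batch 2 and the control libraries batch 1, so line and batch cannot be told apart. Of the 59 higher genes, 55 had a higher mean in ALK7-DN with activin B, 49 of them without overlap, against 51.8% and 5.71% of all genes. Of the 92 lower genes, 90 had a lower mean, 81 without overlap, against 48.1% and 7.26% of all genes. The exceptions, named after their values were seen, were Padi2, Ears2, Lamb1 and Ehd3 among the higher and Ahcy and Pgk1-rs7 among the lower genes. Gip had 11.3 CPM (SD 0.423, n = 3) in control and 19.4 CPM (SD 0.852, n = 3) in ALK7-DN with activin B, both below their levels with DOX alone. Slc1a2 had 22.6 CPM (SD 1.37, n = 3) and 12.6 CPM (SD 0.739, n = 3), both above. Jam2 reached 48.8 CPM (SD 4.54, n = 3) in control, 27.1 CPM (SD 1.34, n = 3) in ALK7-DN and 79.0 CPM (SD 2.72, n = 3) in ALK7 cells. Lamb1, in contrast, had 14.3 CPM (SD 0.417, n = 3) in control and 13 CPM (SD 0.280, n = 3) in ALK7-DN cells.

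**Figure D5:**
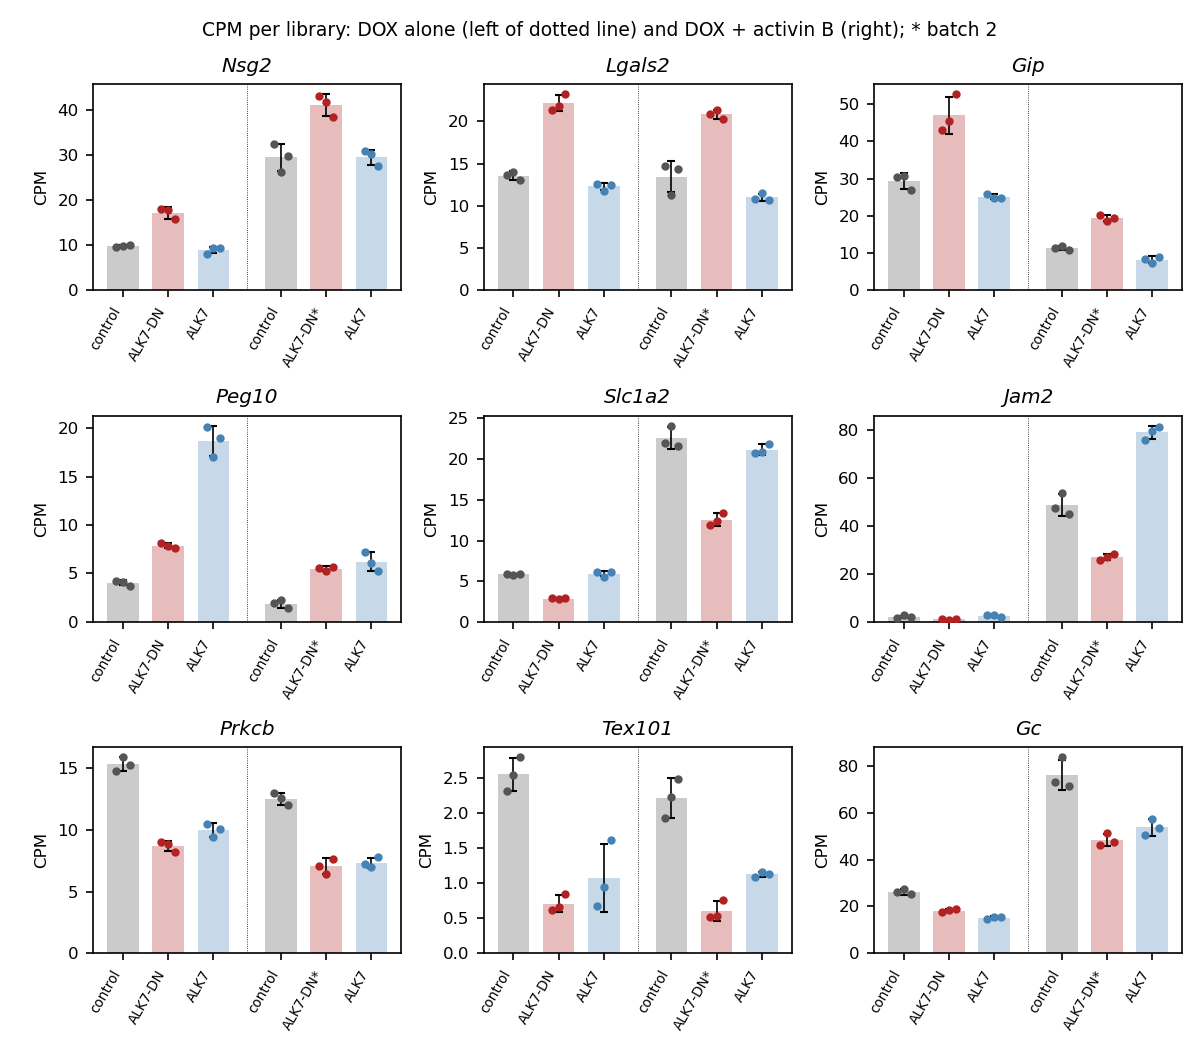
CPM of 9 genes in 3 lines with DOX alone (left of each dotted line) and with DOX and activin B (right), with 1 point per library, bars for means and error bars for the SD of 3 libraries. The starred ALK7-DN group is batch 2. Slc1a2 and Gip keep their order between control and ALK7-DN in both arms.

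The called genes were spread over the genome. No stretch of 4 or more neighbouring tested genes passed in the same direction, and the neighbours that did were the pairs Serpina1b with Serpina1d and Krt7 with 4732456N10Rik. Median log2 fold changes per autosome ran from -0.0504 on chromosome 4, where 12 of 1071 genes were lower (1.12%), to 0.0424 on chromosome 8. The X chromosome had a median of -0.019. The Y chromosome had -0.4575, over only 5 genes tested, of which 0 passed. The largest share of lower genes was on chromosome 13 (7 of 565, 1.24%), against 0.589% of all genes tested. That of higher genes was on chromosome 12, which holds the Serpina1 genes (6 of 539, 1.11%, against 0.378%).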

How the data were processed

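Poly(A) RNA was sequenced from a stranded mRNA kit, per the labels' protocols. The submitters' processing notes name bcl2fastq 2.17, cutadapt 1.4.2, HISAT2, featureCounts 1.4.4 and the build mm10. The strand setting and the handling of reads with several matches are not given in the sources used here. The authors deposited integer read counts for 39017 genes. All 30 columns were assigned to samples and equalled the files of the single samples.

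Counts were tested with edgeR 4.0.16 (R 4.3.3): filterByExpr, TMM, 10 group means over 30 libraries, the quasi-likelihood F test and Benjamini-Hochberg adjustment at 0.05 over 15627 genes. Every adjusted p comes from this test, except where DESeq2 is named. CPM were scaled by TMM library sizes, and log2 CPM used a prior count of 2. The procedure was tested on simulated data. Replicates differed by more than counting error (chi-square per degree of freedom at least 8.25). Alternatives covered libraries, normalization, filter, test (DESeq2 1.42.0, limma 3.58.1), GC content, block, threshold and each replicate left out.

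Gene coordinates are from GENCODE vM21 (GRCm38). Named genes were 10 receptor, SMAD and ligand genes, up to 15 per direction by log2 fold change with a mean of at least 2 CPM in either group, a regular symbol (no predicted genes or pseudogene suffixes) and no overlap, up to 5 by p, up to 5 against both lines, and up to 4 per list. The genes, lists and tests were chosen with earlier results of these data known. Some genes were left out of the lists and are not reported here.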

Additional observations from a re-analysis of the deposited data

Results flagged for a closer look

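Homer2 and Myo7b differed between the receptor lines in opposite directions from the control, and the difference between ALK7-DN and ALK7 with DOX alone was itself tested. For Homer2 it was a log2 fold change of 1.37 (SE 0.08, adjusted p = 2.33e-10 in edgeR), from means of 31.1 CPM in ALK7-DN, 21.7 CPM in control and 12 CPM in ALK7. For Myo7b it was 1.25 (SE 0.12, adjusted p = 4.31e-07 in edgeR), from means of 61.8, 42.8 and 25.9 CPM. With activin B the order was the same, with Homer2 at 25.8, 17.8 and 9.82 CPM and Myo7b at 39.6, 27.0 and 16.0 CPM. Homer2 passed between ALK7-DN and control in 17 of 18 alternative settings and without each of the 6 libraries in turn. Myo7b passed in 9 of 18, and in 1 of the 6 fits that leave out a library.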

How the results depend on the processing

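ALK7-DN against control gave 59 higher and 92 lower genes. Leaving out 1 library at a time gave 19 to 32 higher and 44 to 62 lower. Fitting only the 2 groups gave 6 higher and 19 lower, and batch 1 alone gave 36 higher. No low-count filter gave 27 higher. GC correction gave 106 and 183, and leaving out 3 libraries low in GC-rich reads gave 112 and 159. An adjusted p of 0.01 gave 17 and 40, and a tested fold of 1.2 gave 7 and 20. DESeq2 gave 70 and 102 and limma-trend 55 and 91. Between replicates of the same number the deviations correlated by 0.251, 0.126 and 0.086, and between different numbers by -0.2 to 0.089. The third ALK7-DN library correlated about equally with the second control (0.089) and the third (0.086). The numbers were not taken as pairing in the main fit, and whether replicates of the same number share an effect was not tested. The replicate block was fitted to the 2 groups alone and gave 31 higher and 83 lower genes, against 6 and 19 in the same fit without it, and with GC correction 59 and 120. None of the 42 named called genes changed direction. The cause of these shifts was not tested.

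ALK7-DN against ALK7 gave 183 higher and 200 lower genes. Leaving out 1 library gave 96 to 125 and 108 to 137. GC correction gave 318 and 365, and leaving out the 3 libraries gave 382 and 423. Fitting only the 2 groups gave 212 and 153, with the replicate block 673 and 408, and with the block and GC correction 596 and 481. No filter gave 129 lower. An adjusted p of 0.01 gave 85 and 101, and a tested fold of 1.2 gave 45 and 36.

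ALK7 against control gave 161 higher and 149 lower genes. Leaving out 1 library gave 72 to 126 and 72 to 100. Fitting only the 2 groups gave 61 and 98, with the replicate block 25 and 24, and with the block and GC correction 200 and 366. No filter gave 83 higher, GC correction gave 374 and 401, and leaving out the 3 libraries gave 345 and 278. An adjusted p of 0.01 gave 60 and 65, and a tested fold of 1.2 gave 21 and 23. Counts at low expression limit the precision of genes under 2 CPM, such as Ltbp2.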

Other observations

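Nppa, the gene of atrial natriuretic peptide, lies outside the naming rule and was picked after its values were seen. It had 30, 35 and 33 counts in the control libraries with DOX alone and 0 in each ALK7-DN and ALK7 library, which makes it at least 39.3-fold lower in ALK7-DN with a floor of 3 counts over the group. In the control line with activin B it had 126 counts in all. The 8 groups of the other lines held 1 count in all. Nts, the gene of neurotensin, had 56 counts in control, 11 in ALK7-DN and 5 in ALK7 cells with DOX alone, and 59, 12 and 5 with activin B. The line labelled sh1/2 also had 56 counts of Nts with DOX alone, and the line labelled sh2 had 6.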
